A study of Mus musculus with 25 samples.

Results

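Imprinted genes are expressed mainly from one parental copy, and the difference between the copies is laid down as DNA methylation in the germ line. At a germline differentially methylated region one parental copy carries methyl groups and the other does not, so the region reads near the middle of the scale in tissue where the imprint is kept. Secondary regions gain their methylation after fertilization under the control of a germline region. Many imprinted genes act on growth and metabolism, among them the growth factor gene Igf2, the insulin signalling adaptor Grb10 and the preadipocyte factor Dlk1. The genes described here are 44 imprinted genes chosen by name. CpGs in 35 of them were measured in mammary fat pads, 1342 CpGs of 283936 in all, and 1285 of these had an average coverage of 10 reads or more.

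Methylation was measured by reduced representation bisulfite sequencing, in which DNA is cut with MspI at CCGG sites, short fragments (here 40 to 170 bp) are kept, and unmethylated cytosines are converted before sequencing. The libraries came from C57BL/6N mice that the labels give as wild type. The Control mice received the control diet D12450J, and all other mice first became obese on D12492, a diet with 60% fat. The obese mice then stayed on it (Obese) or changed to a low-fat diet without restriction (LFD), low-fat food cut by 30% in calories (LFCR), Mediterranean-style food cut by the same share (MCR) or intermittent calorie restriction (ICR). At 25 weeks after the first randomization E0771 mouse mammary cancer cells were injected into the 4th mammary fat pad of every mouse, Control mice included, and the contralateral 9th pad was sampled at the end point. The labels name E0771 as the cell line although the tissue is the uninjected pad, and sex and age are not stated. The comparisons of diets rest on Control mice 1, 2, 5, 10 and 13, LFD mice 42, 47 and 48, LFCR mice 63, 67, 69 and 72, MCR mice 85, 95 and 96, and ICR mice 102, 103, 105, 106 and 112. Of the Obese group only mouse 22 was used, as a description, because 1 mouse gives no spread.

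The libraries of LFD mouse 46 and Obese mice 27, 28 and 40 stand apart and were kept out of the groups. At 40 CpGs of imprinted genes below 5% in Control, these 4 libraries read 47.9% to 55.3%, against at most 1.97% in each of the other 21. At the imprinted CpGs of 35 to 65% they read 46.8% to 53.7%, where the other 21 read 39.4% to 52.8%. The share of CpGs with a value ran from 48.3% to 99.5% per library, and the table holds no read count per library.

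The CpGs of imprinted genes lay near the middle of the scale more often than CpGs of the whole table. Of the 1285 CpGs, 648 (50.4%, exact binomial 95% interval 47.7% to 53.2%) had a mean level of 35 to 65% over the 21 libraries, against 46566 of 260376 (17.9%) in the whole table. The share below 35% was 31.1% in imprinted genes and 31.2% in the table, and the share above 65% was 18.5% against 50.9%. The excess was present in CpG islands (54.8% against 11.8%), shores (65.7% against 20.03%) and shelves (45.2% against 21.9%), and was smallest in the open sea (27.1% against 19.003%). Neighbouring CpGs share reads and are not independent, so the interval covers counting error only. At the edges of the class the nearest CpGs lay at 34.9% and 35.1% and at 64.96% and 65.04%.

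**Figure D1:**
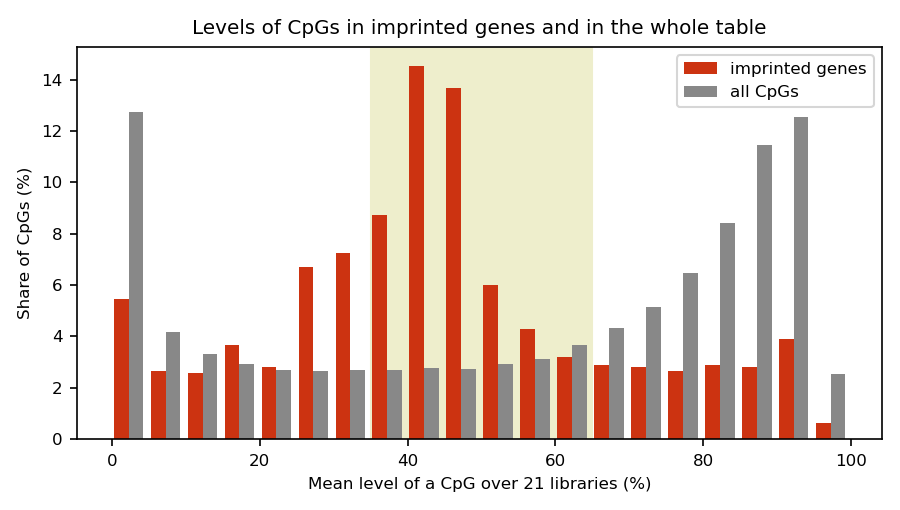
Share of CpGs (%) in steps of 5 percentage points of mean level, for 1285 CpGs of imprinted genes (red) and 260376 CpGs of the whole table (grey); the band marks 35 to 65%. The imprinted genes peak in the middle of the scale and the whole table peaks at both ends.

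Genes differed widely in how much of their measured sequence sat in this class. In Airn, the paternal noncoding RNA that silences Igf2r, 47 of 51 CpGs were in it, in the neuronatin gene Nnat 37 of 43, in Igf2r, which clears IGF2 from the cell surface, 35 of 43, and in Grb10 80 of 102. In Gnas, which encodes the stimulatory G protein alpha subunit and has several imprinted starts, it was 200 of 295. All 18 measured CpGs of Commd1, which hosts the imprinted retrogene Zrsr1 in an intron, were intermediate. At the low end, Cdkn1c, the cell cycle inhibitor p57, had 16 of 97 CpGs in the class, and the growth regulator gene Phlda2 had none of 7, at a mean of 5.96%. The genes without a CpG under their own symbol were Nespas, Rtl1, Ndn, Ube3a, Sgce, Kcnq1ot1, Impact, Zrsr1 and Mcts2. The table lists the Nespas transcript as Gnasas1, with 72 CpGs, and 64 of these also count for Gnas.

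Tests were run on CpGs measured in 3 or more mice of all 5 groups. This left 713 imprinted CpGs of 129217, 376 of them of 35 to 65%. They were also read as 33 gene units, each being the CpGs of 1 gene in 1 level class (at least 3 CpGs), and as 15 blocks, which are runs of at least 5 CpGs of 35 to 65%. The germline or secondary nature of a block was taken from general knowledge of the start site that lies within 4000 bp, which gave 7 germline, 4 secondary and 4 other blocks. Other means only that no listed start site lay within this distance, and such a block may still be a secondary region. Genes such as Plagl1, Peg3, Peg10 and Commd1 have no unit, since too few of their CpGs had enough mice.

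Of the 15 blocks, 11 were called in no diet. In Control mice the blocks averaged 33.2% to 69.0%. The median standard deviation (SD) within groups was 5.25 points in the 15 imprinted blocks and 8.85 points in all 850. The imprinted blocks hold more CpGs, with a median of 10 against 6, and the part of this in the smaller spread was not tested. On chromosome X, where 1 copy is silenced in females, 19 blocks had a median SD of 5.93 points.

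The germline region of the Nespas antisense RNA and of Gnasxl, the start of the extra-large G protein, was among the steadiest positions in the table. Its first block (chr2:174297978-174298473, mm10, annotated to a 1st exon of Gnas, 18 CpGs) read 54.4, 53.4, 56.4, 57.3 and 56.5% in the Control mice and 48.1, 53.8 and 52.1% in the MCR mice. With an SD of 2.53 points within groups it ranked 2 of 850 from the steadiest, and MCR differed from Control by -4.31 points (SE 3.33, adjusted p 0.232, limma with Benjamini-Hochberg adjustment). The second block (chr2:174299003-174300606, 83 CpGs) ranked 8, with 47.4% ± 2.43 (SD, n = 5) in Control, 46.9% ± 3.02 (n = 3) in LFD, 43.8% ± 3.72 (n = 4) in LFCR, 41.3% ± 4.58 (n = 3) in MCR and 47.5% ± 2.28 (n = 5) in ICR. Its MCR difference of -6.15 points did not pass the test (adjusted p 0.109). The SE of each block (3.33 and 3.51 points) uses a variance moderated over all 850 blocks, and it exceeds the block's own SD within groups. The missing calls therefore do not show that this region is unchanged. Both blocks hold more CpGs than the median block, which has 6, and the part of this in their rank was not tested.

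Upstream lies the start of Nesp, which encodes the secretory protein NESP55 and is methylated on the paternal copy as a secondary mark. Its promoter is shown because its measured CpGs held a middle level in all diets. Capitals mark the 8 CpGs of 14 that were measured (RefSeq, GRCm38.p6, the mm10 assembly, plus strand, chr2:174284070-174284319).
Nesp start: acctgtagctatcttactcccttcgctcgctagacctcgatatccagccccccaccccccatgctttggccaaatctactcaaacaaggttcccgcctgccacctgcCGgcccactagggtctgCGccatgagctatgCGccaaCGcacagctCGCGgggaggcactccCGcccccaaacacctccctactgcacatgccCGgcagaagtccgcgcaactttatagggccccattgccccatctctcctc
These 8 CpGs averaged 37.2% in Control, 41.2% in LFD, 38.2% in LFCR, 41.3% in MCR and 36.7% in ICR. The block over the start (chr2:174284177-174284851, 25 CpGs) averaged 45.8% ± 3.98 (SD, n = 5) in Control and 44.7% ± 2.68 (n = 3) in MCR, a difference of -1.17 points (SE 3.80). Behind it, a block at chr2:174287639-174287815 averaged 48.3% and 46.5%. Between these, the block at chr2:174285389-174285711 averaged 50.6% in Control and 40.5% in MCR, and here Control mouse 1 alone read 68.4% while the other 4 read 42.9% to 49.0%. None of the 3 Nesp blocks was called in any diet, but without LFCR mouse 72 this middle one passed in LFCR (-12.1 points).

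Igf2r is shown next as the second promoter with a secondary mark, on the paternal copy. The 250 bases before its start (chr17:12769707-12769956, GRCm38.p6, minus strand) hold 27 CpGs, of which the 17 measured ones are in capitals.
Igf2r start: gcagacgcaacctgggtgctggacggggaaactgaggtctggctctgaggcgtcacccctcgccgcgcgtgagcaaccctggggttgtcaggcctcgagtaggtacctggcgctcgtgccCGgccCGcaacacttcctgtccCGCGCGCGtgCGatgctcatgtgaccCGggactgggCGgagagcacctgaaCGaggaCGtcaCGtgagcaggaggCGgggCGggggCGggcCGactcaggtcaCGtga
The 17 CpGs averaged 34.7% in Control, 39.03% in LFD, 37.7% in LFCR, 26.3% in MCR and 38.04% in ICR, values that were not tested as a set. The block inside this promoter (chr17:12769803-12769830, 6 CpGs) was among the least steady of all blocks, rank 822 of 850. It read 16.7, 33.6, 42.3 and 40.1% in 4 Control mice and 30.6, 35.9 and 33.8% in the MCR mice. In the LFCR mice 63, 67, 69 and 72 it read 18.8, 10.99, 49.1 and 46.5%. Control and MCR means were 33.2% and 33.4%, and no diet was called. The germline region of this cluster at the start of Airn (chr17:12742306-12742414) averaged 48.9% ± 5.07 (SD, n = 3) in Control and 45.8% ± 7.71 (n = 3) in MCR, and was not called either.

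The 3 remaining germline blocks with no call lay at Nnat, Grb10 and Kcnq1ot1. At the start of Nnat inside Blcap (chr2:157560106-157560477, 29 CpGs) Control averaged 41.1% ± 6.88 (SD, n = 4) and MCR 34.3% ± 5.43 (n = 3). At the downstream start of Grb10 (chr11:12025803-12026462, 45 CpGs) the 3 measured Control mice read 51.2, 53.7 and 45.1% and the MCR mice 41.4, 35.4 and 42.5%, which do not overlap. The difference of -10.3 points (SE 4.84) had an adjusted p of 0.0575, and it passed without Control mouse 13 (-12.7 points) and without LFCR mouse 67. With at least 2 mice per group, a setting chosen after seeing the data, this block grew to 68 CpGs and passed, at -11.2 points (adjusted p 0.0333).

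The start of Kcnq1ot1, the noncoding RNA that silences its cluster on the paternal copy, lies inside Kcnq1. Its block (chr7:143295375-143295442, 6 CpGs) read 21.3, 53.2, 42.1, 22.2 and 45.7% in Control mice 1, 2, 5, 10 and 13, and 46.7, 43.3 and 60.1% in the MCR mice. Control mice 1 and 10 were low, the other Control mice read 42.1% to 53.2%, and the groups overlap. The mean difference of +13.2 points (SE 6.99) was not called (adjusted p 0.0861), though it passed without Control mouse 2 (17.2 points). With 16 CpGs, under the setting of at least 2 mice, it was 2.85 points. The same setting showed a further Kcnq1 block, in the gene body (chr7:143372984-143373339, 5 CpGs), which read 28.2% to 53.1% in 4 Control mice and 69.3 and 72.5% in 2 MCR mice, a rise of 30.9 points (adjusted p 0.00277).

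The start of Mcts2, a paternally expressed retrogene inside an intron of H13, was the 1 germline block that was called. Its promoter carries most of the 18 CpGs of the block and is shown for that reason, with the 17 measured CpGs of 20 in capitals (chr2:152686898-152687147, GRCm38.p6, plus strand).
Mcts2 start: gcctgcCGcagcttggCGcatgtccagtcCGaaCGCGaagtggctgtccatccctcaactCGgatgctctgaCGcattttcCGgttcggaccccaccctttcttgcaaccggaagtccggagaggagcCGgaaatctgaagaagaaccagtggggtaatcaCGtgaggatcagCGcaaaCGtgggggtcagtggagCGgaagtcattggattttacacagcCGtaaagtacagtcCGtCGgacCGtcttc
The block (chr2:152686854-152687141) read 57.0, 80.7, 74.5, 72.8 and 60.0% in the Control mice. It read 46.1, 46.2 and 45.6% in the MCR mice, all below every Control mouse. In the LFCR mice 63 and 67 it read 31.0 and 33.6%, and in LFCR mice 69 and 72 it read 56.8 and 61.0%, within or next to the Control range. The level fell by 23.0 points in MCR (SE 6.56, adjusted p 0.00303) and by 23.4 points in LFCR (SE 6.03, adjusted p 0.0037). Control stood above the middle of the scale here, at 69.0% ± 10.1 (SD, n = 5), and Obese mouse 22 read 66.3%.

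The hexamer TGCCGC, in which the methylated form is bound by the imprint-keeping zinc finger protein ZFP57, was searched on both strands (its other strand reads GCGGCA). It occurs 1 time in the Mcts2 window and in neither of the windows before Igf2r and Nesp. Over all 32817 RefSeq promoter windows of 250 bases 8.68% hold it, and 8 of the 51 windows of 36 imprinted genes do. These are matches of letters and were not tested for binding.

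**Figure D2:**
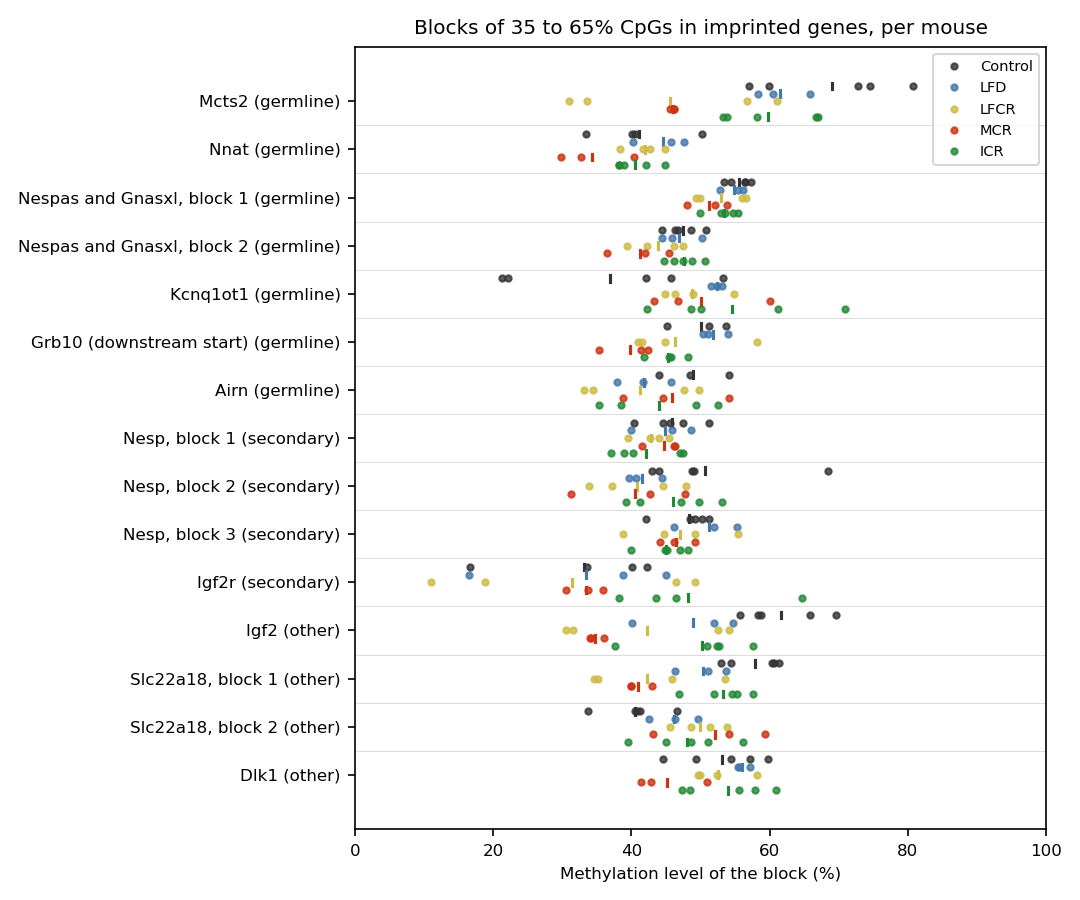
Methylation level (%) of the 15 blocks of imprinted genes in each mouse (points) with group means (ticks), named by the nearest start site or the gene and grouped as germline, secondary or other. The Nespas and Gnasxl blocks spread little within groups, though the second runs from 36.4% in an MCR mouse to 50.8% in a Control mouse. The Mcts2, Igf2, Grb10 and first Slc22a18 blocks read lower in all 3 MCR mice than in every measured Control mouse, and that of Grb10 was not called.

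The other blocks that were called lay outside known germline regions. In Igf2 a block in the shore of an island (chr7:142657313-142657499, gene body and 5'UTR, 5 CpGs) read 65.9, 69.6, 58.3, 55.7 and 58.8% in Control and 34.2, 34.1 and 36.1% in MCR. LFCR mice 63 and 67 read 30.6 and 31.6%, and LFCR mice 69 and 72 read 52.6 and 54.2%. The level fell by 26.9 points in MCR (SE 5.82, adjusted p 0.000324) and by 19.4 points in LFCR (adjusted p 0.00473). All LFCR and MCR mice lay below all Control mice. So did LFD mice 42, 47 and 48 (40.1, 54.7 and 51.9%), though LFD was not called (-12.7 points, adjusted p 0.0805). How common such gaps are among all blocks and gene units is not given, here or at other genes. Of all 850 blocks 73.1% fell in MCR and 65.8% in LFCR. With at least 2 mice per group, further Igf2 blocks read higher in MCR without a call by limma. These were chr7:142665137-142665589 (8.36 points, adjusted p 0.0629) and chr7:142654308-142654526 (9.58 points, adjusted p 0.105, 2 MCR mice).

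Slc22a18, which encodes an organic cation transporter-like protein, held neighbouring blocks that moved in opposite directions. The first (chr7:143475057-143475196) averaged 57.9% ± 3.99 (SD, n = 5) in Control, 42.3% ± 9.10 (n = 4) in LFCR and 40.9% ± 1.74 (n = 3) in MCR, and fell by 17.0 points in MCR (adjusted p 0.00138) and by 15.7 points in LFCR (adjusted p 0.0037). The second (chr7:143475960-143476136) averaged 40.6% ± 4.61 in Control, 49.9% ± 3.59 in LFCR and 52.2% ± 8.26 in MCR, and rose by 11.6 points in MCR (adjusted p 0.0214) and by 9.30 points in LFCR (adjusted p 0.0464), with the groups overlapping. Each block has 5 CpGs, and joined into 1 block of 10 CpGs, with neighbours up to 1000 bp apart, they differed by -2.73 points in MCR. The rise in MCR was lost without Control mouse 1, MCR mouse 85 or MCR mouse 96 (8.02 to 16.1 points over all mice left out in turn), and that in LFCR without each of 12 mice (7.57 to 10.8 points). The rise in LFCR was also lost with at least 2 mice per group (adjusted p 0.0553).

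In Dlk1 a block over a 1st exon (chr12:109459831-109460018, 13 CpGs) averaged 53.1% ± 6.13 (SD, n = 5) in Control and 45.1% ± 5.14 (n = 3) in MCR, with overlapping mice and no call (adjusted p 0.0932). It passed without Control mouse 2 or MCR mouse 85 (-10.1 and -10.9 points).

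Over the 15 blocks, 3 fell and 1 rose in MCR, where 73.1% of all 850 blocks fell and 10.9% rose, and 3 fell and 1 rose in LFCR, where 65.8% fell and 9.18% rose. The median difference was -6.15 points in MCR against -25.9 for all blocks, and -2.96 points in LFCR against -16.9. Blocks of chromosome X also had small differences in MCR, with a median of -5.12 points and 8 of 19 lower, while the 816 autosomal blocks outside imprinted genes had a median of -26.9 points and 610 lower. In LFD none of the 15 was called by limma (2 at unadjusted p under 0.05; 31.3% of all blocks were called), and in ICR none was called (2 at unadjusted p under 0.05; 0% of all). Their median differences were -0.55 points in LFD against -12.1 for all blocks, and -3.25 points in ICR against -8.68. All 4 contrasts share the Control mice. Blocks are built from CpGs of intermediate mean level, and the diet mice count in that mean. A difference between diets can thus itself place a CpG in a block, and so shape the values of all blocks. The part of this in the gap between imprinted blocks and all blocks was not tested. A block with no call is not shown to be unchanged.

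**Figure D3:**
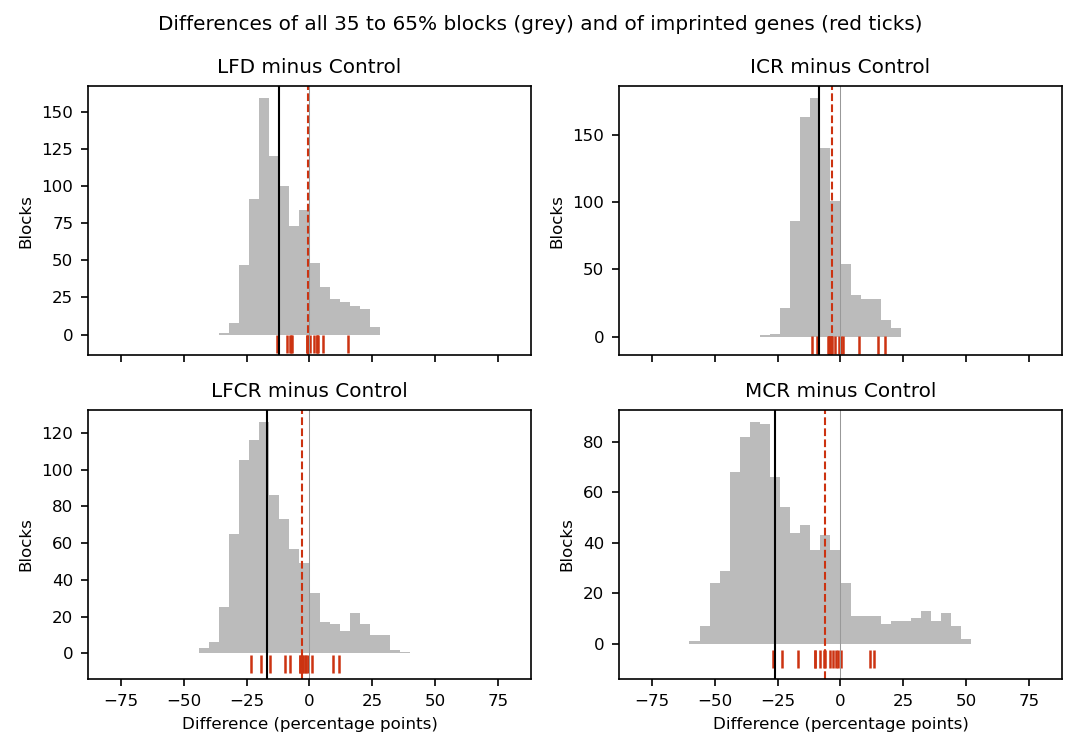
Differences from Control (percentage points) of all 850 blocks (grey, number of blocks), with their median (black line), and of the 15 blocks of imprinted genes (red ticks) with theirs (dashed red line), in the 4 diets. In MCR the medians are -25.9 and -6.15 points, and imprinted blocks lie on both sides of 0. The diet mice count in the mean that places CpGs in blocks, and the part of this in the gap was not tested.

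Falls also outnumbered rises among single CpGs. Of the 376 imprinted CpGs of 35 to 65%, 74 fell and 3 rose in MCR, where 52.9% of all such CpGs fell and 8.61% rose, and 35 fell and 0 rose in LFCR, where 24.7% fell and 3.44% rose. The median difference was -7.64 points in MCR against -19.3 over all CpGs of that class. Outside the class, of 337 imprinted CpGs 105 fell and 4 rose in MCR against 27.7% and 3.5% of all, and 46 fell and 0 rose in LFCR against 8.8% and 0.974%. Their median in MCR was -8.02 points against -5.94 in all. The diet mice count in the mean that sets the class, so a fall can itself place a CpG inside or outside it. The part of this was not tested for either class. In LFD 0 of the 376 and 0 of the 337 were called by limma, with 38 and 52 at an unadjusted p under 0.05, and in ICR 0 and 0, with 43 and 45. All CpGs of both classes likewise gave 0% called in LFD and in ICR.

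The LFCR counts rested on few mice. Each mouse was left out in turn with the CpGs, classes, units and blocks held as they were. Without LFCR mouse 63 or without LFCR mouse 67 no imprinted CpG of either class was called. Without Control mouse 2 the 35 became 3 and the 46 became 2. Without Control mouse 13, 23 CpGs of 35 to 65% and 21 others were called. Among the others, 11 were called without Control mouse 1, 29 without Control mouse 5 and 72 without LFCR mouse 72.

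H13, which encodes the signal peptide peptidase, had the largest falls among the imprinted gene units, in MCR and in LFCR. Its 3' end was the site of 4 of the 5 CpGs with the largest falls in MCR and all 5 in LFCR. At the CpG chr2:152707832, in the 3'UTR, Control mice read 39.1% to 85.7% with a mean of 59.4%, and the MCR mice 0, 5.13 and 2.06%. Its neighbours at positions 152707793, 152707743 and 152707800 went from 57.0, 60.3 and 57.8% in Control to 2.38, 6.34 and 3.85% in MCR. In LFCR the largest falls were at positions 152707614, 152707569, 152707623 and 152707612 (-39.3, -38.7, -38.3 and -38.2 points), with 152707793 next at -38.0. Of 64 tested CpGs of H13, 50 fell in MCR and 43 in LFCR, and none rose. Of all CpGs, 52.9% in the class and 27.7% outside it fell in MCR, and 24.7% and 8.8% in LFCR. The class was set by the mean over all 21 libraries, so the levels in the tested diets also decided it. At position 152707614 this mean was 32.5%, outside the class, while Control averaged 56.6%.

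Taken as a unit, the 39 CpGs of H13 outside the 35 to 65% class read 65.1, 75.7, 54.3, 49.5 and 54.0% in the Control mice and 20.1, 21.1 and 19.6% in the MCR mice. LFCR mice 63 and 67 read 19.6 and 14.9%, LFCR mice 69 and 72 read 39.8 and 49.2%, and LFD mouse 42 read 18.0% against 52.6 and 39.8% in LFD mice 47 and 48. The unit fell by 39.4 points in MCR (SE 8.10, adjusted p 0.000799) and by 28.8 points in LFCR (SE 7.44, adjusted p 0.0117). It was also the least steady unit, with an SD of 11.7 points within groups, followed by the other class of H13 (9.70) and Airn (9.06). The steadiest were units of Igf2 (0.961), Phlda2 (1.63) and Tssc4 (1.69), all outside the class. With at least 2 mice per group a further block of 10 CpGs appeared in H13 (chr2:152706184-152706458), at 69.0% ± 9.88 (SD) in the Control mice and 19.9% in 2 MCR mice (-49.2 points, adjusted p 0.000223).

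H19, the maternally expressed noncoding RNA beside Igf2, fell in both classes. Its measured CpGs lie in the gene (chr7:142575795-142576291) and not in the germline control region that lies before its start. The 5 CpGs outside the class read 82.3, 84.6, 80.9, 88.2 and 82.1% in Control and 64.2, 64.4 and 60.3% in MCR. They fell by 20.7 points in MCR (SE 2.80, adjusted p 0.000392) and by 12.1 points in LFCR (SE 2.57, adjusted p 0.011), and neither group overlapped Control. The LFD mice (75.4% to 78.6%) also lay below every Control mouse, without a call (adjusted p 0.133). The 3 CpGs inside the class fell by 25.4 points in MCR and by 14.04 points in LFCR. Here the LFD, MCR and ICR mice all lay below every Control mouse, while the LFCR mice overlapped Control.

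Cdkn1c fell with both of its units in MCR. Its 16 CpGs of 35 to 65% read 50.05, 51.0, 44.9, 44.2 and 45.0% in Control and 31.1, 39.2 and 32.0% in MCR, a fall of 12.9 points (SE 3.12, adjusted p 0.00211). The 79 others fell by 6.41 points, from 27.8% to 21.3%. In LFCR the intermediate unit fell by 9.13 points (adjusted p 0.0202).

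The 158 intermediate CpGs of Gnas fell by 6.89 points in MCR. The Control mice read 52.3, 47.3, 47.7, 50.5 and 48.8%, the MCR mice 41.8, 39.9 and 45.6%, and the groups did not overlap (SE 1.78, adjusted p 0.0033). The 59 other CpGs fell by 11.2 points, from 37.9% ± 1.85 to 26.7% ± 2.82. The Gnas CpG with the largest fall, chr2:174334592 in the gene body, far behind the imprinted starts, went from 64.8% to 10.8%. Of 217 tested CpGs of Gnas 42 fell in MCR and none rose. Of all CpGs, 52.9% in the class and 27.7% outside it fell in MCR, and 8.61% and 3.5% rose. The 5 blocks of Gnas differed from Control by -1.17 to -10.1 points.

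Meg3, the maternal noncoding RNA of the Dlk1 cluster, fell by 9.22 points in the class and by 14.2 points outside it in MCR, from 81.4% to 67.2%. Dlk1 outside the class fell from 27.7% to 16.5% (adjusted p 0.000392) while its intermediate unit was not called (-7.97 points, adjusted p 0.0601). Kcnq1, a potassium channel gene, fell by 15.9 points in the class and by 7.76 points outside it. Grb10 fell by 10.0 points and Igf2 by 8.22 points in the class. Blcap fell by 6.45 and 7.57 points in its 2 units and the tetraspanin gene Cd81 by 7.59 points from 15.5%. Some of these rest on single mice: without MCR mouse 95 the intermediate units of Grb10 (-8.21 points), Meg3 (-7.14 points) and Blcap, the Kcnq1 unit outside the class and the Cd81 unit (-4.62 points) were not called. The Blcap unit outside the class was lost without Control mouse 2, MCR mouse 85 or MCR mouse 96, its intermediate unit also without Control mouse 5, 10 or 13 or MCR mouse 85, the Grb10 unit also without Control mouse 5 or 10, and the Cd81 unit also without Control mouse 2 or 5. With the class set in Control mice alone Igf2 (-0.974 points) and Meg3 (-8.25 points) in the class were not called, Cd81 turned to 0.510 points, and with a class of 40 to 60% Blcap (-5.02 points) was not called. With at least 2 mice per group, which adds CpGs, the intermediate units of Igf2 (20 CpGs, -2.75 points, adjusted p 0.366) and Blcap (-5.78 points, adjusted p 0.0556) were not called, and that of Kcnq1 was -9.18 points. On all 25 libraries both Blcap units, Cd81, Kcnq1 outside the class and the rise of Slc22a18 lost their calls, with differences of the same sign.

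Slc22a18 was the 1 unit that rose. Its 3 CpGs outside the class went from 35.1% ± 5.00 (SD, n = 5) to 46.1% ± 2.05 (n = 3) in MCR, by 10.98 points (adjusted p 0.00807), and rose by 7.68 points in LFCR (adjusted p 0.0487), a call that was lost without each of 14 mice. With a class of 40 to 60% the same label took 7 CpGs and differed by -5.17 points in MCR and -5.26 points in LFCR. Of the 5 CpGs with the largest rises in MCR, 3 were in Slc22a18 and 1 each in Igf2 and Kcnq1: chr7:143495547 went from 26.0% to 63.2%, chr7:143495726 from 17.7% to 37.3%, chr7:142665766 in Igf2 from 80.1% to 95.7% and chr7:143475968 from 46.4% to 61.0%. That in Kcnq1, chr7:143373300, went from 73.6% to 88.1%.

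Of the 16 intermediate units, 9 fell and 0 rose in MCR, with a median of -8.41 points against -17.4 over all units; 71.6% of all units of the class fell and 8.71% rose. In LFCR 6 fell (H13, H19, Cdkn1c, Igf2, Meg3 and Gnas) and 0 rose, against 56.6% and 5.82%. Diet mice count in the mean that sets the class, so CpGs can enter it because the diets differ. The part of this in the values of all units was not tested. Of the 17 units outside the class, 9 fell and 1 rose in MCR, against 57% and 2.66%, and 5 fell and 1 rose in LFCR, against 34.9% and 1.64%; the falls in LFCR were in H13, H19, Meg3 (by 7.81 points), Dlk1 (by 6.43 points) and Igf2 (by 2.49 points). The intermediate units without a call were those of Airn, Dlk1, Igf2r, Magel2, Mest, Nnat and Slc22a18. That of Nnat (31 CpGs) differed by -6.54 points in MCR (adjusted p 0.0636), close to the called unit of Blcap (-6.45 points, adjusted p 0.0394). These units overlap, since the block of 29 CpGs at the start of Nnat carries both gene names, so they are not independent. Mest, a hydrolase-like gene tied to fat expansion, averaged 53.3% ± 5.09 (SD, n = 4) in Control and 49.9% ± 8.97 (n = 3) in MCR, and the MAGE family gene Magel2 56.3% ± 9.23 and 47.3% ± 11.7. Without LFCR mouse 63, or without LFCR mouse 67, no imprinted unit was called in LFCR. The H19 unit in the class differed by -8.87 points without mouse 67. In the class, the calls of H19, Cdkn1c, Igf2 and Meg3 in LFCR were also lost without Control mouse 2, that of Gnas without Control mouse 1, 10 or 13, and that of Meg3 without Control mouse 5 or LFCR mouse 69. Outside it, Meg3 was lost without Control mouse 2 and Igf2 without Control mouse 1 or LFCR mouse 72. With at least 2 mice per group Igf2 (-4.26 points, adjusted p 0.157) and Meg3 (-4.18 points, adjusted p 0.204) in the class and Meg3 (-6.28 points) and Slc22a18 (6.04 points) outside it were not called in LFCR. With the class set in Control mice alone Igf2 (-2.77 points) and Meg3 (-7.03 points) in the class and Slc22a18 outside it were not called in LFCR either, and with a class of 40 to 60% Meg3 in it (-5.05 points) and Dlk1 outside it (-4.29 points) were not.

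**Figure D4:**
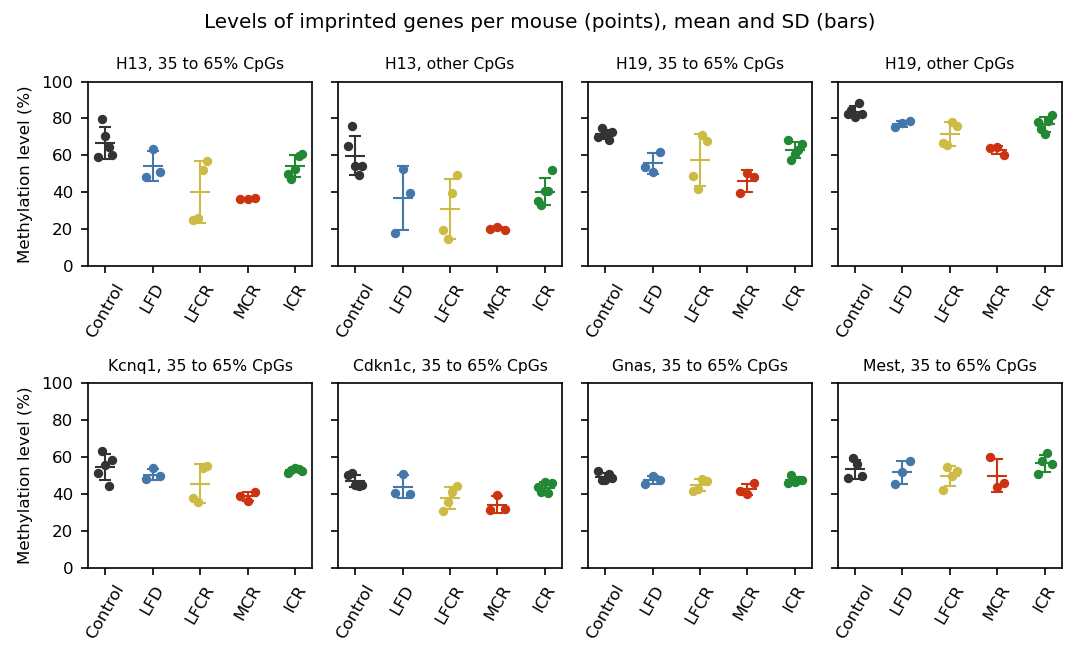
Methylation level (%) of 8 gene units per mouse (points), with group mean and SD (bars), in 5 diet groups. H13 and H19 read lower in the 3 MCR mice than in every Control mouse, LFCR mice split into 2 low and 2 higher ones at H13, and Mest overlaps in all groups.

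The LFD and ICR diets gave no called unit by limma. In LFD 2 intermediate and 3 other units had an unadjusted p under 0.05, and 0.0413% and 0% of all units were called. The smallest p values were those of H19 (-15.9 points in the class and -6.48 outside it), H13 outside the class (-22.9 points), Meg3 outside it (-7.62 points) and Igf2 in it (-5.95 points), with adjusted p from 0.102 to 0.141. Without LFD mouse 47, 2 units were called, those of H13 (-30.8 points) and Meg3 (-10.8 points) outside the class. In ICR 1 and 3 units had an unadjusted p under 0.05, and 0% of all were called in each class. Here the smallest p values were those of H19 (-6.74 points), H13 (-19.4 points) and Slc22a18 (7.46 points) outside the class and of H13 (-12.8 points) and Igf2 (-4.53 points) in it, with adjusted p from 0.259 to 0.272.

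Between the restricted diets no difference was called. In MCR against LFCR 0 of 16 and 0 of 17 units were called by limma (2 and 4 at an unadjusted p under 0.05, 0% of all called in each class). The smallest p values were for Gnas (-6.70 points), H19 (-8.56 points) and Dlk1 (-4.76 points) outside the class and Nnat (-6.77 points) and Blcap (-5.94 points) in it, at an adjusted p of 0.372. In LFCR against LFD 0 and 0 units were called (1 and 1 at an unadjusted p under 0.05, 0% of all in each class), with Dlk1 outside the class first (-5.81 points, adjusted p 0.933). Magel2 (-13.6 points) and H13 (-14.1 points) in the class and Cdkn1c (-3.81 points) and H19 (-5.62 points) outside it came next.

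The mean over the imprinted CpGs of 35 to 65% was taken per mouse, and the choice of the class itself holds it near the middle of the scale. It was 51.3% ± 1.15 (SD, n = 5) in Control, 48.7% ± 2.47 (n = 3) in LFD, 44.6% ± 4.20 (n = 4) in LFCR, 41.2% ± 1.87 (n = 3) in MCR and 48.3% ± 0.50 (n = 5) in ICR. Over all CpGs of the class the means were 57.9, 50.2, 47.1, 41.6 and 52.2% in the same order. The mice with the lowest imprinted means were the 3 MCR mice (39.4% to 43.1%) and LFCR mice 63 (39.8%) and 67 (42.5%), and LFD mouse 42 followed at 46.4%. These 6 mice were also the lowest over all CpGs of the class.

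**Figure D5:**
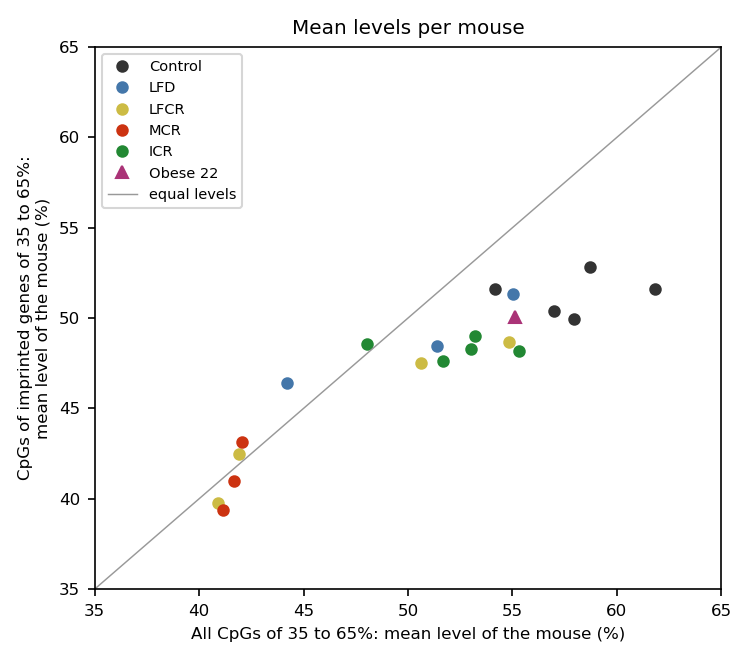
Mean level (%) of imprinted CpGs of 35 to 65% against that of all CpGs of 35 to 65%, 1 point per mouse, with the line of equal levels. Control mice lie at 49.96% to 52.8% on the imprinted axis and 54.2% to 61.8% on the other, and MCR mice are low on both.

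Marker promoters of leukocytes and of luminal epithelium read apart in the Control and MCR mice. The leukocyte list (7 of 12 genes measured) averaged 22.4% to 39.0% in the Control mice, 31.2% to 46.6% in LFD, 30.3% to 50.2% in LFCR, 50.4% to 54.0% in MCR and 30.4% to 43.9% in ICR, and 6 of its 7 genes were higher in MCR. The luminal epithelial list (5 of 9 measured) averaged 34.1% to 61.2% in Control and 19.4% to 20.7% in MCR, with all 5 genes lower. It was below every Control mouse in the other diets too, at 21.4% to 29.7% in LFD, 21.6% to 29.5% in LFCR, 26.9% to 29.3% in ICR and 30.8% in Obese mouse 22. In Control and MCR, which overlap in the other lists, the endothelial list (5 of 7) gave 48.3% to 55.7% and 42.1% to 53.9%, the muscle list (4 of 6) 51.5% to 54.1% and 51.9% to 55.0%, the fibroblast list (2 of 5) 10.4% to 28.1% and 6.25% to 14.3%, and the basal list (1 of 5) 14.9% to 22.8% and 11.6% to 33.6%. Of 9 adipocyte genes 5 are in the table, and the 10 promoter or 1st exon CpGs of Lipe and Plin1 had too few mice to be used, so the fat of the pad was not checked this way. In whole tissue a change in the share of a cell type and a change of methylation within cells cannot be told apart, and the part of these markers in the losses at imprinted genes was not tested.

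A second list held 63 further genes reported as imprinted in mice, 44 of them in the table. Of their 10 intermediate units 5 fell and 1 rose in MCR, against 71.6% and 8.71% of all units of the class, and of 14 others 8 fell, against 57% of all. The falls in the class were in Jade1, a histone acetylation scaffold (-38.7 points), Tspan32 (-30.1), the survival gene Bcl2l1 (-28.8), the chloride channel gene Ano1 (-26.1) and the procollagen peptidase gene Adamts2 (-13.5), and Osbpl5 rose by 12.6 points from 38.1%. In LFCR 5 of the 10 fell and 1 rose as well (Jade1 -27.8, Bcl2l1 -25.0, Tspan32 -20.8, Ano1 -14.9, Adamts2 -10.6, Osbpl5 10.2 points), against 56.6% and 5.82% of all, and 3 of the 14 fell, against 34.9%. The median over the 10 was -11.8 points in MCR, against -17.4 over all units of the class. Here too the diet mice count in the mean that sets the class.

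Genes that write, read or protect the imprint formed another list, 26 genes with 19 in the table. Trim28, the corepressor that ZFP57 recruits, fell in MCR by 30.6 points in the class, the methylcytosine oxidase gene Tet3 by 19.9 points and the methyltransferase gene Dnmt3a by 17.3 points, 3 of 5 units where 71.6% of all fell. Outside the class 5 of 7 fell, where 57% of all did: Trim28 by 12.4 points, Tet3 by 11.5 points, Dnmt3a by 9.53 points, Ctcfl by 6.60 points and Uhrf1, which guides the maintenance methyltransferase, by 4.95 points. In LFCR 3 of 5 and 3 of 7 fell, those of Trim28, Tet3 and Dnmt3a, against 56.6% and 34.9% of all. These CpGs lie anywhere in the gene, and no expression was measured here.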

How the data were processed

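DNA methylation was measured by reduced representation bisulfite sequencing in 25 mouse mammary fat pads, per the labels. The submitters' processing notes name Bismark and mm10, and versions and filters are not given in the sources used here. The authors deposited 1 table with the methylation level per CpG and library as a fraction of reads, and an average coverage signal per CpG over 21 libraries; the latter times 21 was whole at 100% of CpGs (tolerance 1e-06). Per-library depth is unknown, so single values have no binomial interval. Levels are printed in percent.

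The imprinted genes, the gene lists and the 4 libraries set aside were chosen with earlier results of these data known. The rule for named genes takes every gene with an intermediate unit, every block, called units (at most 10 per direction, or the 5 of smallest p) and the 5 called CpGs per direction of largest difference. CpGs on chromosomes with an average coverage of at least 10 and values in at least 3 mice per group were fitted with limma 3.58.1 in R 4.3.3 (1 term per group, 20 libraries, moderated variance, two-sided, Benjamini-Hochberg over the whole table, call at an adjusted p under 0.05). The count model planned first needs counts and was replaced by this. A mouse with fewer than 0.5 of a unit's CpGs was dropped from that unit. Blocks are runs with gaps of at most 500 bp in which at least 70% of CpGs are of 35 to 65%. The labels name each library as 1 mouse; they give no batch. The model was tested on simulated data, 850 blocks with falls of 5, 10, 20 and 30 points in MCR in 50 blocks each. It called 6%, 16%, 58% and 90% of these, with 6 false calls among the rest. Small differences were mostly missed there, and fewer blocks were changed than were called in MCR in the real data. Sequences and gene starts come from RefSeq tables (GRCm38.p6), which matched 43 of the 44 symbols.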

Additional observations from a re-analysis of the deposited data

Results flagged for a closer look

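In the Nesp block at chr2:174285389 of Gnas, Control mouse 1 read 68.4% while the other 4 Control mice read 42.9% to 49.0%, a gap that is large for a group of this size. Of 43 such checks 1 was marked, and chance marks about 1 in 20.

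At imprinted CpGs below 5% in Control, the libraries outside the diet groups held a signal: 47.9% in LFD mouse 46, 55.3% in Obese mouse 27, 52.4% in Obese mouse 28 and 52.2% in Obese mouse 40.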

How the results depend on the processing

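Alternatives marked as added, at least 2 mice per group and all 25 libraries, were chosen after seeing the data; the others were set with earlier results known. Apart from mice left out, 146 values under other settings stayed the same and 12 moved. A count of calls stayed the same within 1.5 times the value reported, or with 0 in both. A few of these values are a share or a spread. Counts in LFD, in ICR, in MCR against LFCR and in LFCR against LFD were 0 in the reported fit. Many of the 146 therefore compare 0 with 0. With a class of 40 to 60%, 20 and 51 intermediate CpGs were called in LFCR and MCR, and 1 and 2 blocks; Slc22a18 outside the class differed by -5.26 and -5.17 points and inside it by 8.02 points in LFCR. With the class set in Control mice alone, 1 block was called in LFD, Cd81 differed by 0.510 and Slc22a18 in the class by -2.92 points in MCR. Requiring 10 points left 4 units in LFCR and 11 in MCR. With gaps of 1000 bp, 2 blocks were called in each of LFCR and MCR, and the second Slc22a18 block became -3.18 and -2.73 points. With at least 2 mice, 25 CpGs outside the class were called in LFCR and 7 blocks in MCR; Magel2 outside the class differed by -4.17 and -5.90 points, the Igf2r block by 3.02 and -7.93 points and the Kcnq1ot1 block by -4.04 points in LFCR. On all 25 libraries 6 units were called in LFCR. The causes were not tested.

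With each mouse left out in turn and the CpGs, classes, units and blocks held, called CpGs in and out of the class numbered 0 to 52 and 0 to 72 in LFCR and 61 to 94 and 84 to 114 in MCR, units 0 to 2 in LFD, 0 to 16 in LFCR and 15 to 20 in MCR, and blocks 3 to 5 in LFCR and 3 to 6 in MCR. None of the values that changed sign had passed the test. In LFCR these were the intermediate units of Dlk1 (-2.64 to 1.16), Airn (-7.996 to 1.95), Blcap (-2.39 to 1.60), Nnat (-2.05 to 2.75) and Slc22a18 (-1.06 to 0.999), the other units of Nnat (-2.36 to 0.897), Magel2 (-2.92 to 3.84) and Ascl2 (-1.89 to 0.988), and the blocks of Dlk1 (-2.64 to 1.16), Igf2r (-7.75 to 4.96), Nnat (-1.70 to 3.87) and the third of Nesp (-4.05 to 1.52). In MCR they were Airn in the class (-7.17 to 1.69), Magel2 (-3.35 to 4.58) and Phlda2 (-1.24 to 0.204) outside it, Slc22a18 in it (-1.22 to 3.61), and the blocks of Airn (-7.18 to 0.455), Igf2r (-5.26 to 3.28) and the first of Nesp (-2.54 to 0.375). With the CpGs also chosen anew, added after seeing the data, the intermediate units without MCR mouse 95 were -1.51 points (Igf2) and -5.34 points (Kcnq1) in MCR. No paired analysis was possible because the groups share no replicate numbers. Depth per library is unknown and limits every single value.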
